A study of Mus musculus with 14 samples.

Results

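White adipose tissue was set against heart, muscle, liver, lung and kidney by its poly(A) sites, where the nascent transcript is cut and a poly(A) tail is added. The method was 3P-seq, short for profiling of poly(A) positions by sequencing, which yields 1 tag for each transcript end it captures, so that the number of tags at a site does not scale with the length of the transcript. The members are the 2 adipose libraries among 14 libraries of the series, 1 from a miR-22 knockout mouse and 1 from a wild-type mouse, chosen by their label. The mutant is named miR-22D in the protocol, which gives no further detail of the allele. They were compared with 10 libraries, 1 knockout and 1 wild type of each of the other 5 tissues, and libraries from stem cells and from the 3T3 cell line were left out. Every tissue library carries the strain background 129S5/SvEvBrd in the labels, and adipose tissue is given there as white, with no depot, age or sex. No group was replicated, and the labels do not state whether tissues were taken from 1 animal. A p-value given here therefore measures the spread between single libraries, not between animals, and fewer cells of a type in a tissue and less RNA per cell cannot be told apart.

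White adipose tissue stores triglyceride in adipocytes, releases fatty acids by lipolysis and secretes hormones called adipokines. Alongside adipocytes, a fat pad holds stromal, endothelial and immune cells. Many genes carry more than 1 poly(A) site, and ending at the proximal or the distal site decides how much of the 3′ untranslated region, where microRNAs bind, stays in the mRNA. The knockout mice lack miR-22, a microRNA gene that gives rise to a pair of mature RNAs, which pair with targets mainly through the seed at bases 2 to 8. Both are shown because genotype enters every comparison below, with the seed in capitals and the sequence from RefSeq (table of build GRCm38.p6, where the gene lies on chromosome 11).
mmu-miR-22-3p: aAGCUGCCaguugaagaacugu
mmu-miR-22-5p: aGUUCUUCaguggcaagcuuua

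The adipose libraries were among the shallower ones, with 2036838 tags in knockout and 2852376 in wild type, against 2323440 to 6010465 tags in the other 10 libraries. Merging gave 148337 sites, of which 17481 had tags in all 12 libraries, and 23912 had enough tags to be tested. Muscle libraries stood apart in how concentrated they were: 50% of tags lay at 145 sites in knockout and 107 in wild-type adipose tissue, against 16 sites in knockout and 13 in wild-type muscle. The defining markers of white adipocytes, Cfd, Plin1, Adipoq and Fabp4, could not be looked up, because sites are given in build mm9 and an annotation of mm9 was not used here. The label was thus not checked against markers, sites carry no gene names, and each is given by its chromosome, start, end and strand in mm9, counted from 1. Levels are in CPM, tags relative to the total of the library, after scaling between libraries by the trimmed mean of M-values (TMM).

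Among the sites that set adipose tissue apart, a small number of very abundant ones held most of the tags. Concentration of tags at few sites was not particular to this tissue, as given for muscle above. Against the mean of the other 5 tissues, 2067 of 23912 sites (8.64%) rose at least 4-fold in adipose tissue and 810 (3.39%) fell by as much, at an adjusted p under 0.05 in edgeR's quasi-likelihood test. The median difference was 3.06 on the log2 scale among sites that rose, -2.83 among those that fell and -0.05 over all tested sites. Of the sites that rose, 1246 were higher in both adipose libraries than in any of the other 10 (5.21% of all tested sites), where 7.43% of all sites met that condition with no regard to the test. Of those that fell, 282 were lower in both than in any other (1.18%), where 2.75% met the condition with no regard to the test. A further criterion bears on the first count: a site at which adipose tissue alone is high can pass the filter on low tags only through adipose tissue, and with a filter set on the other 10 libraries 22550 sites were tested and 1342 rose. Scaling by library totals moved the median of all sites by 0.29 (log2) and the split from 71.85% to 82.15% of calls higher, with 2558 sites higher and 556 lower.

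The 1246 sites at which both adipose libraries stood above the other 10 held 33.0% of all tags in knockout and 32.3% in wild-type adipose tissue. In the other 10 libraries the same sites held between 1.11% in wild-type muscle and 4.23% in knockout lung. That these shares are lower follows from how the sites were chosen, and 15 of the 1246 had no tag in the other 10 libraries. How many of the 1246 pass a filter set on those 10 libraries was not counted. Few of them carried most of these tags: 281 had at least 50 CPM in adipose tissue, 37 at least 1000 CPM and 6 at least 10000 CPM. The 12 most abundant held 19.0% ± 0.341 of adipose tags (SD, n = 2) and 0.633% ± 0.199 in the other libraries (n = 10). The median level of the 1246 sites in adipose tissue was 9.67 CPM, so that most of them were below 10 CPM even there.

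**Figure D1:**
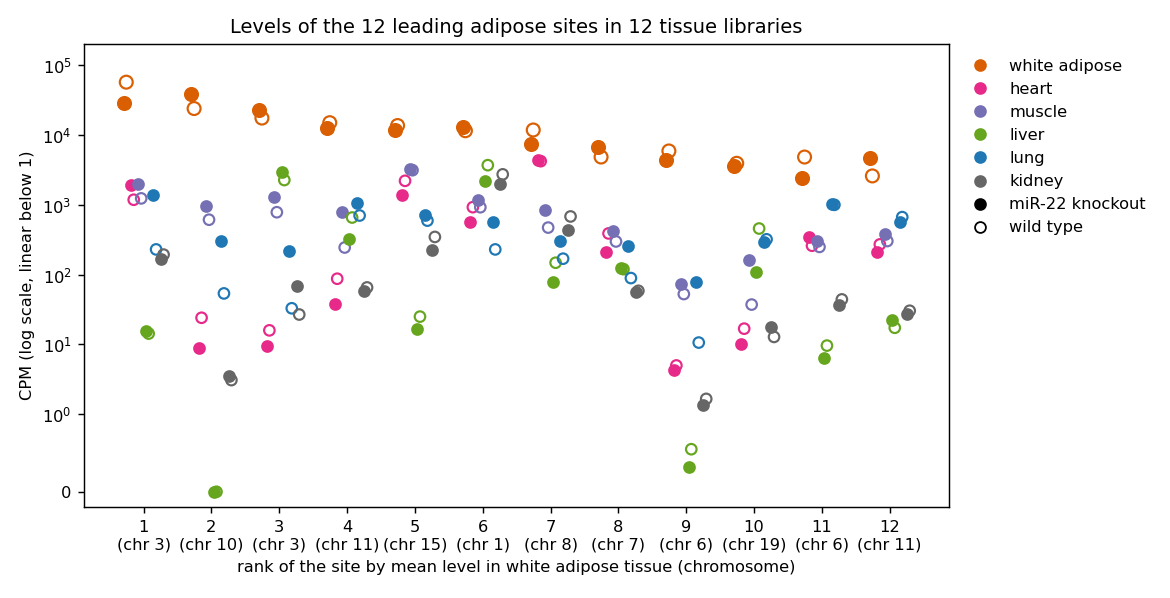
Level of the 12 most abundant sites that set adipose tissue apart (CPM, logarithmic axis, linear below 1) in each of 12 libraries, 1 point per library with knockout filled and wild type open. By the rule of choice the adipose points lie above all others at every site, between 2395 and 56792 CPM. The spread between the other tissues reaches from 0 to 4426 CPM.

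The most abundant of these sites lay on chromosome 3, 10204328 to 10204562 (minus strand). It had 28808 CPM in knockout and 56792 CPM in wild-type adipose tissue, against 14.3 CPM at the lowest, 703 at the median and 1964 CPM at the highest in the other 10 libraries. That the groups did not overlap was a condition for naming the site. The knockout library had only 0.507 of the level of the wild-type one. The log2 difference from the mean of the other tissues was 7.06 (SE 0.317, adjusted p = 1.42e-26). The site was lowest in liver, with 15.7 CPM in knockout and 14.3 in wild type, and reached 1366 CPM in knockout lung against 229 CPM in wild-type lung.

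The second lay on chromosome 10, 79355232 to 79355418 (plus strand), and here the knockout library was the higher, with 39042 CPM in knockout and 23796 CPM in wild-type adipose tissue. Neither liver library had a tag there, and the highest of the other libraries was knockout muscle at 968 CPM. The lower of the adipose values was 24.6-fold the highest value elsewhere. The fitted log2 difference was 11.34 (SE 0.376, adjusted p = 7.81e-32), a value that depends on how the fit treats the empty liver libraries. Against muscle, the tissue nearest to adipose at this site, it was 5.31.

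The next site, on chromosome 3 from 14872397 to 14872560 (plus strand), had 23033 CPM in knockout and 17379 CPM in wild-type adipose tissue, and liver came next with 2935 CPM in knockout and 2252 in wild type. The fourth, on chromosome 11 from 120668357 to 120668622 (minus strand), had 12685 and 14936 CPM in knockout and wild-type adipose tissue, against 37.2 to 1054 CPM elsewhere, highest in knockout lung. Both rose against every other tissue taken singly. At the site on chromosome 15 from 78760524 to 78760701 (plus strand), adipose tissue had 11822 CPM in knockout and 13588 CPM in wild type, against 16.6 to 3292 CPM elsewhere, with muscle highest. Adipose tissue was called higher there against heart, liver, lung and kidney, and against muscle the difference was 1.97 on the log2 scale (adjusted p = 0.000351), just under the 4-fold limit.

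At the next 2 sites another tissue came closer. On chromosome 1, the site at 122009866 to 122009997 (minus strand) had 12839 CPM in knockout and 11450 CPM in wild-type adipose tissue, and between 229 and 3678 CPM in the other libraries, so that the lower adipose value was 3.11-fold the highest elsewhere. On chromosome 8, the site at 71430369 to 71430829 (plus strand) had 7500 CPM in knockout and 11736 CPM in wild-type adipose tissue. Heart was close to it, with 4426 CPM in knockout and 4197 CPM in wild type, and against heart alone the log2 difference of 1.15 did not pass the test (adjusted p = 0.0528). The eighth, on chromosome 7 at 148645868 to 148646059 (plus strand), had 6639 CPM in knockout and 4813 CPM in wild-type adipose tissue, against 56.3 to 419 CPM elsewhere.

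Of the remaining 4, the site on chromosome 6 from 113374625 to 113374683 (minus strand) was the most sharply bounded, with 4294 CPM in knockout and 5875 CPM in wild-type adipose tissue and at most 77.7 CPM in any other library (knockout lung). Its median elsewhere was 4.63 CPM, and the log2 difference was 9.77 (SE 0.364, adjusted p = 6.78e-30). Another on chromosome 19 from 44468863 to 44469377 (minus strand) had 3585 CPM in knockout and 3915 CPM in wild-type adipose tissue, with wild-type liver next at 456 CPM. The other two, on chromosome 6 from 17291136 to 17291338 (plus strand) and on chromosome 11 from 100818033 to 100818112 (minus strand), were higher in lung than in the other non-adipose tissues. The first had 2395 CPM in knockout and 4811 CPM in wild-type adipose tissue against up to 1006 CPM in lung, and the second 4600 and 2580 CPM in knockout and wild-type adipose tissue against up to 664 CPM in lung. Against lung alone, the first differed by 1.82 on the log2 scale and the second by 2.52.

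Ranked by fold difference instead of level, the 8 leading sites at 50 CPM or more had their lower adipose value 24.6-fold to 55.3-fold above the highest other library, and 2 of them, on chromosomes 10 and 6, are described above. On chromosome 7, the site from 86865109 to 86865193 (minus strand) had 2288 CPM in knockout and 3945 CPM in wild-type adipose tissue, and no other library passed 48.4 CPM. On chromosome 16, the site from 23157751 to 23157865 (plus strand) had 2045 CPM in knockout and 1974 CPM in wild-type adipose tissue, against 0 to 36.7 CPM elsewhere, with a median of 1.96 CPM. Its adipose libraries were nearly equal, with a knockout to wild-type ratio of 1.04 (95% exact binomial interval 0.998 to 1.08, counting error only, since tags were not tied to single molecules).

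Of the others in that ranking, the site on chromosome 2 from 157388123 to 157388252 (plus strand) had 1243 CPM in knockout and 1219 CPM in wild-type adipose tissue, and at most 29.4 CPM elsewhere. The site on chromosome 11 from 101200658 to 101200762 (plus strand) had 765 CPM in knockout and 1598 CPM in wild-type adipose tissue and at most 15.0 CPM elsewhere. Chromosome 19 had a pair of such sites on its minus strand. The first, from 7671146 to 7671284, had 589 and 558 CPM in knockout and wild-type adipose tissue and at most 18.8 CPM elsewhere, and the second, from 33048363 to 33048397, had 529 and 345 CPM and at most 6.34 CPM elsewhere. At each of these sites the highest other library was a lung or a muscle library, and at each of them 1 or both liver libraries had no tag. Their fitted log2 differences lay between 9.76 and 11.11 and depend on the treatment of libraries at 0.

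With TMM scaling, lung and muscle were the tissues in which adipose sites were most often next highest. Of the 1246 sites, the next tissue was lung at 367, muscle at 321, heart at 230, kidney at 172 and liver at 156. How often each of these tissues was the highest of them over all tested sites was not counted, so the order may not be particular to adipose sites. For the 281 of them with at least 50 CPM, the median level as a percentage of that in adipose tissue was 11.8% in knockout and 9.47% in wild-type lung. It was 8.01% in knockout and 6.40% in wild-type muscle, 7.76% and 7.94% in knockout and wild-type heart, 4.48% and 4.96% in kidney, and 4.23% and 4.06% in liver. Liver had the most empty sites, 37 of 281 in knockout and 40 in wild type, whereas knockout lung and knockout muscle had tags at all 281. The order of tissues was not counted with library totals. TMM factors were 0.669 and 0.551 in knockout and wild-type muscle, against 1.235 and 1.15 in adipose tissue. By library totals, muscle levels would thus be lower relative to adipose tissue. The source of these levels was not tested.

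The reverse comparison, also with TMM scaling alone, gave smaller shares for most tissues. Sites chosen in the same way for lung, 500 in number, had in adipose tissue a median of 10.5% of their lung level in knockout and 12.9% in wild type. For 303 heart sites the median was 6.14% in knockout and 6.26% in wild-type adipose tissue, for 436 muscle sites 3.13% and 3.02%, for 395 kidney sites 2.5% and 2.21%, and for 742 liver sites 1.5% and 1.1%. With TMM scaling the median was highest for lung in both directions, and this was not counted with library totals. At the 436 muscle sites, levels summed to 718222 CPM in knockout and 865129 CPM in wild-type muscle. The 281 adipose sites summed to 264992 CPM in knockout and 278166 CPM in wild-type adipose tissue. Liver and heart sites also summed to more than this in their own tissue, and lung and kidney sites to less. Across all tested sites the Spearman correlation of adipose with other libraries averaged 0.701 for lung, 0.696 for muscle, 0.673 for heart, 0.577 for kidney and 0.522 for liver, against 0.910 between the adipose libraries. These correlations are across sites within pairs of libraries and are given as a description.

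A site that rose against the mean of 5 tissues was not always highest in adipose tissue. Adipose tissue had the highest mean at 1585 of 2067 such sites, lung at 171, muscle at 104, liver at 87, kidney at 79 and heart at 41. An example is the site on chromosome 11 from 67073849 to 67074018 (plus strand), with 347 CPM in knockout and 320 CPM in wild-type adipose tissue. Muscle had 105359 CPM there in knockout and 111345 CPM in wild type, and no library of another tissue passed 0.473 CPM. It counted as higher in adipose tissue against heart, liver, lung and kidney and as lower against muscle. Because of such sites, the 2067 sites that rose held 41.0% and 39.9% of tags in knockout and wild-type adipose tissue but also 27.0% and 25.1% in knockout and wild-type muscle.

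**Figure D2:**
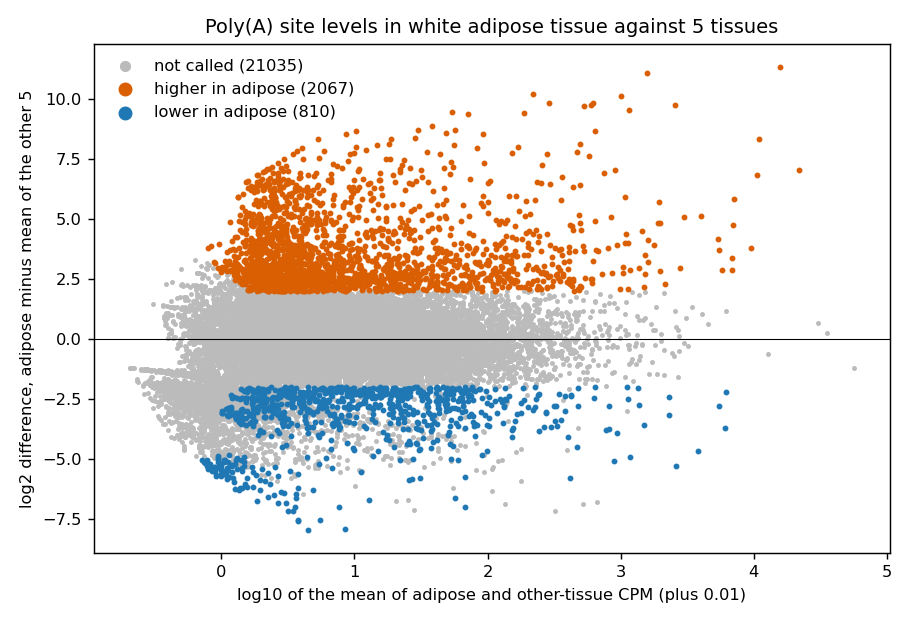
Log2 difference of each of 23912 tested sites between adipose tissue and the mean of the other 5 tissues (vertical axis), against the log10 of the mean of adipose and other-tissue levels in CPM plus 0.01 (horizontal axis). Each point is a site, with 2067 higher and 810 lower sites in colour. Abundant sites are few at the right of the plot, where 37 of the sites with both adipose libraries on top had at least 1000 CPM in adipose tissue.

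Sites that fell in adipose tissue were mostly rare there, with a median of 0.833 CPM in adipose tissue and 13.8 CPM in the other tissues. Together they held 0.655% of tags in knockout and 0.739% in wild-type adipose tissue, against 4.90% to 25.2% in the other libraries. The tissue with the highest mean was liver at 237 of the 810, kidney at 177, heart at 175, muscle at 120 and lung at 101. The same was not counted over all tested sites. The count rested on the muscle libraries in part: with both left out, 1289 sites fell.

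The largest fall among sites with a mean of at least 50 CPM elsewhere was on chromosome 3, from 95701692 to 95701741 (minus strand). Adipose tissue had 0.412 CPM in knockout and 0.940 CPM in wild type, which were 1 and 3 tags, against 26.6 CPM at the lowest, 73.2 at the median and 377 CPM at the highest elsewhere. Heart was highest, and the site fell against each of the other 5 tissues. With as few as 4 adipose tags, the fitted log2 difference of -6.99 (SE 0.673, adjusted p = 7.36e-13) is loosely bounded on its lower side.

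Better measured falls were found where adipose tissue still had tags. The site on chromosome 17 from 39984619 to 39985261 (plus strand) had 44.1 CPM in knockout and 41.0 CPM in wild-type adipose tissue, against 127 CPM at the lowest and 9021 CPM at the highest elsewhere, a log2 difference of -4.90 (SE 0.503, adjusted p = 6.61e-12). Liver had the most, 9021 CPM in knockout and 4436 CPM in wild type, and muscle the least, and against muscle alone the difference of -1.7 was under the 4-fold limit. The site on chromosome 15 from 25903236 to 25903440 (plus strand) had 5.36 CPM in knockout and 4.70 CPM in wild-type adipose tissue, against 72.5 to 538 CPM elsewhere, and fell against all 5 tissues (log2 difference -4.84, SE 0.53, adjusted p = 5.1e-11 against their mean).

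At 5 further sites adipose tissue had at most 5 tags in its libraries together. On chromosome 16, the site from 31457429 to 31457628 (plus strand) had 0.824 CPM in knockout and 0.940 CPM in wild-type adipose tissue, against 3.17 to 356 CPM elsewhere. A second on that chromosome, from 35981794 to 35981833 (minus strand), had the same 2 and 3 tags in adipose tissue, against 1.81 to 133 CPM elsewhere. Liver was highest at both. The site on chromosome 4 from 8072409 to 8072458 (minus strand) had 0 and 0.626 CPM in knockout and wild-type adipose tissue, against 3.62 to 234 CPM elsewhere. That on chromosome 17 from 39984142 to 39984214 (plus strand) had 0.412 and 0.313 CPM against 2.26 to 254 CPM elsewhere, and that on chromosome 5 from 93035453 to 93035604 (plus strand) 0.824 and 0.626 CPM against 1.89 to 225 CPM elsewhere, highest in wild-type muscle. All 5 passed the test against the mean of the other tissues, but no fold is given at so few tags.

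Sites that rose were grouped with their neighbours. When tested sites within 5000 nt of a neighbour on the same strand were joined, 14771 runs resulted, of which 1518 had a site that rose in adipose tissue. In 926 of these, the greater part, the site was the only one tested. Of the 592 with more, every site rose in 238, and at least 1 did not in 354. How many of all 14771 runs held a single tested site was not counted, so the share of such runs may not be particular to adipose tissue. The longest run in which all sites rose lay on chromosome 9, from 55058167 to 55072038 (minus strand), with 10 sites and 399 CPM in adipose tissue summed over them. A run of 8 sites on chromosome 11, from 101199122 to 101203375 (plus strand), summed to 1231 CPM. Of this, 1182 CPM lay at the site from 101200658 described above. A run of 7 on chromosome 7, from 86864903 to 86867966 (minus strand), summed to 3412 CPM, of which the site described above was the greater part.

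In all, 2 runs held both a site that rose and a site that fell. In one, on chromosome 17 from 39979996 to 39985591 (plus strand), 1 of 15 sites rose and 7 fell, among them both chromosome 17 sites given above. In the other, on chromosome 17 from 25967585 to 25975780 (minus strand), 1 of 4 sites rose and 1 fell. Runs are not genes, and sites of 1 run can belong to different transcripts.

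By chromosome, the share of tested sites that rose lay between 5.24% on chromosome 13 and 11.9% on chromosome 19 among the autosomes, around the 8.64% over all sites. On the mitochondrial genome 25 of 49 sites fell, against 3.39% of all sites. Mitochondrial sites held 9.0% of tags in knockout and 12.3% in wild-type adipose tissue, against 3.52% in wild-type lung to 31.3% in knockout heart. The mean of 10.6% ± 2.33 (SD, n = 2) was below the 15.4% ± 9.94 of the other libraries (n = 10) by less than their spread (p = 0.515, adjusted p = 0.773 over 3 measures, two-sided exact permutation test over 66 splits). Adipose tissue also lay inside the range of the others in how many sites held 50% of the tags, 145 in knockout and 107 in wild type against 13 to 709 (p = 0.818, exact permutation test). With 2 libraries against 10 the smallest two-sided p is 0.0303.

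Of the 148337 merged sites, 873 had tags in both adipose libraries and in none of the other 10. The like was not counted for the other tissues, so the number may not be particular to adipose tissue. Most of the 873 were sparse: 75 had at least 10 adipose tags in all, and 14 at least 20. The 15 that passed the filter on low tags did so through adipose tissue alone, which fixed their direction. The most abundant, on chromosome 13 from 105711820 to 105711852 (plus strand), had 35 tags in knockout and 22 in wild-type adipose tissue, 17.2 and 7.71 CPM of all tags, unscaled. Against a floor of 3 tags over the other 10 libraries together, or 0.0785 CPM, the ratio was 148.5-fold. It leaves out counting error in the adipose tags and describes a site chosen for having no tag elsewhere. The next, on chromosome 11 from 101200336 to 101200370 (plus strand), had 18 tags in knockout and 28 in wild type, a ratio of 119.9-fold to the same floor. It belongs to the run of 8 sites given above, so that the direction of that member of the run was fixed by the filter.

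Taken against each tissue singly, adipose tissue differed from liver at the most sites, 7045 with TMM and 7335 with library totals. With TMM kidney came next with 6243 sites, and with library totals muscle did, with 7206 sites against 6263 for kidney. Sites that rose numbered 3493 (14.6%) against liver, 2638 (11%) against kidney, 2512 (10.5%) against muscle, 2332 (9.75%) against lung and 2068 (8.65%) against heart. Sites that fell numbered 3552 (14.9%) against liver, 3605 (15.1%) against kidney, 2118 (8.86%) against muscle, 2792 (11.7%) against lung and 2463 (10.3%) against heart. The 5 comparisons share the adipose libraries. Among the 1246 sites with both adipose libraries on top, 527 rose against every other tissue.

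The balance of higher and lower sites against heart, muscle, liver and lung depended on the scaling. Library totals in place of TMM shifted the median of all sites by 0.58 (log2) against heart, 0.97 against muscle, 0.34 against liver and -0.37 against lung. Against heart this gave 3745 higher and 1704 lower sites, 68.73% higher in place of 45.64%, and against muscle 5927 higher and 1279 lower, 82.25% in place of 54.25%. Against liver it gave 4297 higher and 3038 lower sites, 58.58% higher in place of 49.58%. Against lung it gave 1756 higher and 3889 lower sites, 31.11% higher in place of 45.51%. Against kidney the shift was -0.04 and the higher share 40.52% in place of 42.26%. Without wild-type muscle, 1507 sites rose against muscle.

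**Figure D3:**
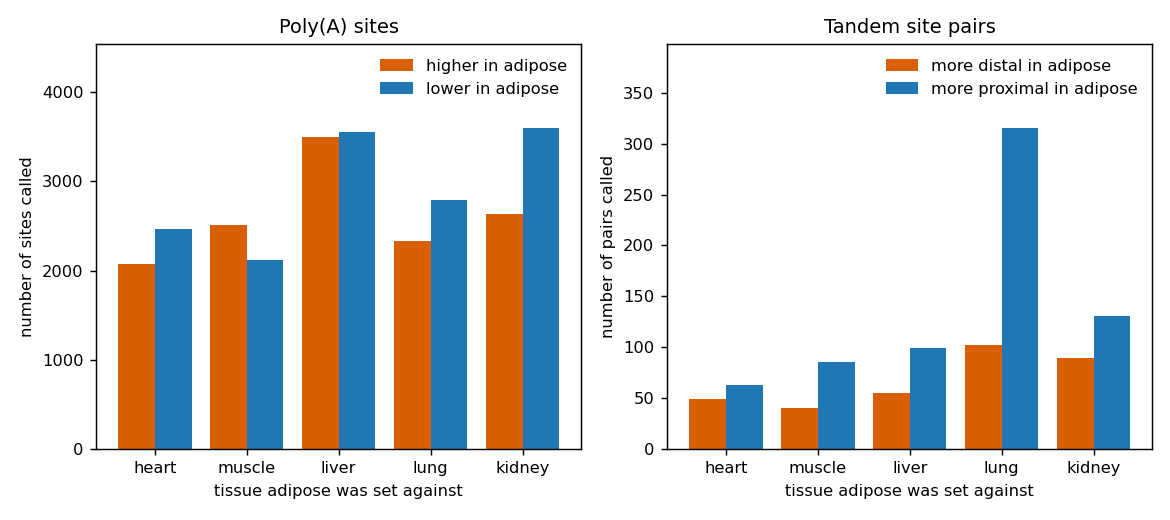
Number of sites higher or lower in adipose tissue (left panel, of 23912 tested) and number of tandem pairs with more distal or more proximal use in adipose tissue (right panel, of 4183 tested) against each of the other 5 tissues. With TMM scaling, as drawn, kidney follows liver in the number of sites (muscle does with library totals), and lung has the most pairs, 316 of them more proximal in adipose tissue.

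The use of neighbouring sites was compared in tandem pairs, 2 tested sites on 1 strand 100 to 5000 nt apart. Of 8285 such pairs, 4183 had enough tags at both sites. A pair could pass that filter through the other tissues alone, with its rarer site under 5% in adipose tissue. This favours a call away from that site, and how many called pairs passed in this way was not counted. Relative to the mean of the other 5 tissues, 48 pairs (1.15%) shifted to the distal site in adipose tissue and 110 (2.63%) to the proximal site, at an adjusted p under 0.05. Both adipose libraries lay outside the range of the other 10 in 27 of the distal and 73 of the proximal pairs, 0.645% and 1.75% of all pairs. The median difference in the log2 ratio of distal to proximal tags over all pairs was -0.14. These counts rested on both adipose libraries: without the knockout library 4 pairs were distal and 4 proximal, and without the wild-type library 32 and 19, so that the lean to proximal sites was lost. The proximal count was also 66 without wild-type muscle, 73 without knockout liver and 172 without knockout lung.

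Against single tissues the most pairs shifted against lung, 102 pairs (2.44%) more distal and 316 (7.55%) more proximal in adipose tissue. Against kidney there were 89 (2.13%) and 131 (3.13%), against liver 55 (1.31%) and 99 (2.37%), against muscle 40 (0.956%) and 85 (2.03%), and against heart 49 (1.17%) and 63 (1.51%). Without the knockout adipose library these became 23 and 67 against lung and between 9 and 34 against the other tissues. Proximal calls outnumbered distal ones against every tissue in the full data. The share of pairs called was highest among those farthest apart: of 1633 pairs 1000 to 5000 nt apart, 27 were distal and 57 proximal, of 1482 pairs 300 to 999 nt apart 12 and 35, and of 1068 pairs 100 to 299 nt apart 9 and 18.

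The median distal share over pairs was 50% in both adipose libraries and 53.0% ± 1.90 in the other 10 (SD), which ranged from 50% in wild-type heart to 56.2% in lung. The difference gave p = 0.0909 and an adjusted p of 0.273 over 3 measures (two-sided exact permutation test). In 1705 pairs with at least 20 tags in every library, it was 49.1% in knockout and 47.0% in wild-type adipose tissue against 49.4% to 56.2%, with the smallest p that 66 splits allow, 0.0303, and an adjusted p of 0.0909. Libraries of the same tissue are not independent, which these tests do not take into account.

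A shift in site use can come from either site of a pair. Among the 110 pairs shifted to proximal, the proximal site itself rose in 36 and the distal site fell in 18, and in 56 neither site passed its own test. Among the 48 shifted to distal, the distal site rose in 11 and the proximal site fell in 16, with 21 in which neither passed. In 4 of the proximal and 3 of the distal pairs both sites rose.

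**Figure D4:**
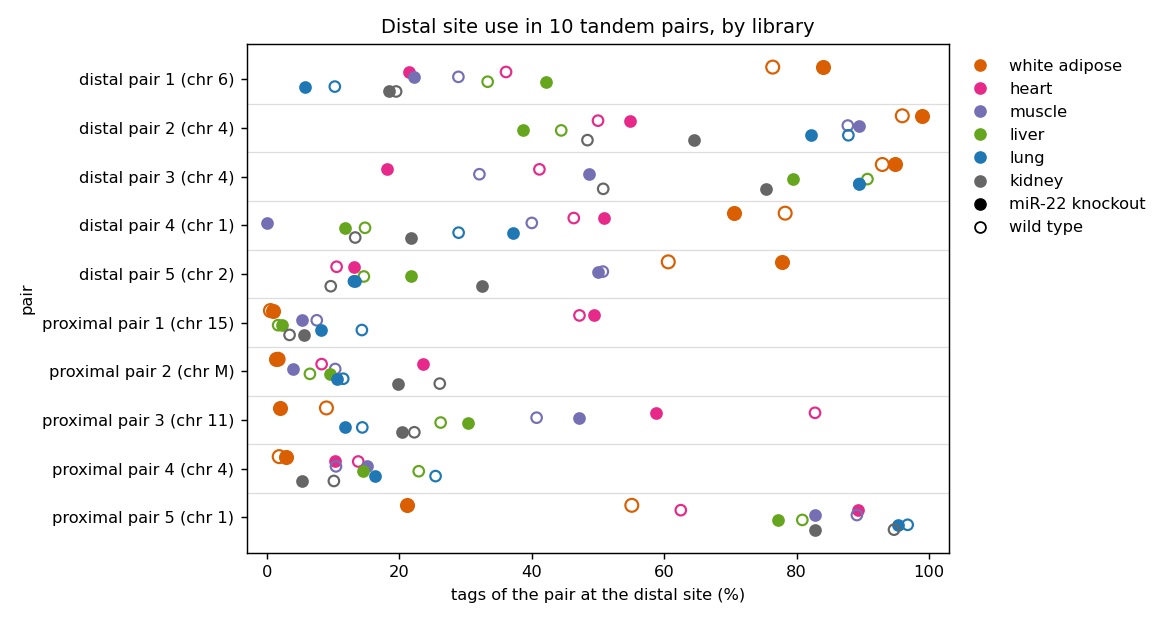
Share of a pair's tags at the distal site (percent) in each of 12 libraries, 1 point per library with knockout filled and wild type open, for 5 pairs shifted to the distal and 5 shifted to the proximal site in adipose tissue. By the rule of choice the adipose points lie at the right end in the upper 5 pairs and at the left end in the lower 5. The 2 adipose points are farthest apart in the last pair, at 21.2% and 55.1%.

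The clearest distal shift was in a pair on chromosome 6 (plus strand) with sites ending at 133057761 and 133060914. The distal site had 84.0% of tags in knockout and 76.4% in wild-type adipose tissue, against 5.80% at the lowest, 21.8% at the median and 42.2% at the highest elsewhere. The difference in the log2 ratio of distal to proximal tags was 3.86 (SE 0.483, adjusted p = 2.21e-05). The distal site itself rose, with a mean of 35.8 CPM in adipose tissue and 5.6 CPM in the other libraries, and the pair was called with any single library left out.

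The other distal pairs were less secure. On chromosome 4 (plus strand), the pair ending at 131866664 and 131866938 had 98.9% and 95.9% distal tags in knockout and wild-type adipose tissue, against 38.6% to 89.5% elsewhere. The proximal site fell there, to a mean of 0.676 CPM in adipose tissue against 13 CPM elsewhere. The pair on the same strand ending at 128685641 and 128688771 had 94.9% and 92.9% in knockout and wild-type adipose tissue against 18.1% to 90.7%, and was abundant, with 1513 tags in knockout and 2248 in wild-type adipose tissue. Liver and lung came close to adipose tissue in this pair, and heart and muscle did not. Without the knockout adipose library the difference in the log2 ratio of the first was 3.48 in place of 4.19 (adjusted p = 0.0738) and that of the second 2.74 in place of 3.04 (adjusted p = 0.0827), so that the shifts remained and the calls did not.

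On chromosome 1 (minus strand), the pair ending at 51526342 and 51522850 had 70.6% distal tags in knockout and 78.3% in wild-type adipose tissue, against 0% to 50.9% elsewhere, the 0% coming from 4 tags in knockout muscle. On chromosome 2 (minus strand), the pair ending at 126718975 and 126718038 had 77.8% and 60.6% in knockout and wild-type adipose tissue, from 36 and 33 tags, against 9.64% to 50.7% elsewhere. Neither call held with each library left out, though the differences stayed on the same side. That of the chromosome 1 pair was 2.59 in place of 3.09 without the wild-type adipose library (adjusted p = 0.10), and that of the chromosome 2 pair 2.94 in place of 3.18 without the knockout one (adjusted p = 0.0915).

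Of the proximal shifts, the clearest was in a pair on chromosome 15 (plus strand) with sites ending at 99555435 and 99558544. The distal site had 0.857% of tags in knockout and 0.536% in wild-type adipose tissue, from 7588 and 7650 tags, against 1.7% at the lowest, 6.58% at the median and 49.4% at the highest elsewhere. Heart stood at the other end, with 49.4% in knockout and 47.2% in wild type, and liver was nearest to adipose tissue. The proximal site rose, with 3100 CPM in knockout and 2383 CPM in wild-type adipose tissue against a mean of 458 CPM elsewhere, while the distal site had a mean of 19.8 CPM in adipose tissue and 46.7 CPM elsewhere and did not pass its own test. The difference was -3.77 (SE 0.427, adjusted p = 6.2e-06) and was called with any single library left out. Against liver alone it was -1.54 and did not pass the same test (adjusted p = 0.106).

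On the mitochondrial genome (plus strand), sites ending at 11543 and 11652 formed the most abundant of these pairs, with 69240 tags in knockout and 106298 in wild-type adipose tissue. The distal site had 1.36% and 1.7% of them, against 3.88% to 26.1% elsewhere. The proximal site averaged 30438 CPM in adipose tissue and 30061 CPM elsewhere, and the distal site fell to 477 CPM in adipose tissue, against 4114 CPM elsewhere. Without the knockout adipose library the difference in the log2 ratio was -2.88 in place of -3.06, with an adjusted p of 0.0513.

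The pair on chromosome 11 (plus strand) ending at 75322948 and 75326665 had 1.94% distal tags in knockout and 8.99% in wild-type adipose tissue, against 11.7% in knockout lung to 82.8% in wild-type heart. Its distal site fell to a mean of 8.91 CPM in adipose tissue, against 45.9 CPM elsewhere, and without the knockout adipose library its difference was -2.50 in place of -3.27 (adjusted p = 0.0738). The pair on chromosome 4 (minus strand) ending at 41661981 and 41659064 had 2.90% and 1.86% in knockout and wild-type adipose tissue against 5.32% to 25.5%, and without the wild-type adipose library its difference was -2.13 in place of -2.71 (adjusted p = 0.0573). The pair on chromosome 1 (minus strand) ending at 196924908 and 196921498 had 21.2% in knockout and 55.1% in wild-type adipose tissue against 62.5% to 96.8%. Its adipose libraries were far apart, and without the knockout one the difference was -2.65 in place of -3.66 (adjusted p = 0.170).

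The adipose libraries differed from each other by genotype as well, in 1 library against 1, and the counts that follow are given as a description, with no test. Among the 454 sites that set adipose tissue apart and had at least 20 CPM there, 81 were at least 2-fold higher and 54 at least 2-fold lower in knockout than in wild-type adipose tissue, 29.7% in all. Over all 3779 tested sites at 20 CPM or more, 484 were 2-fold higher and 702 lower, 31.4% in all. Scaled by library totals, the counts were 93 and 45 among the 454 and 574 and 609 among the 3779. Among the 12 leading sites, the knockout to wild-type ratio ran from 0.498 at the chromosome 6 site from 17291136 to 1.78 at the chromosome 11 site from 100818033.

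**Figure D5:**
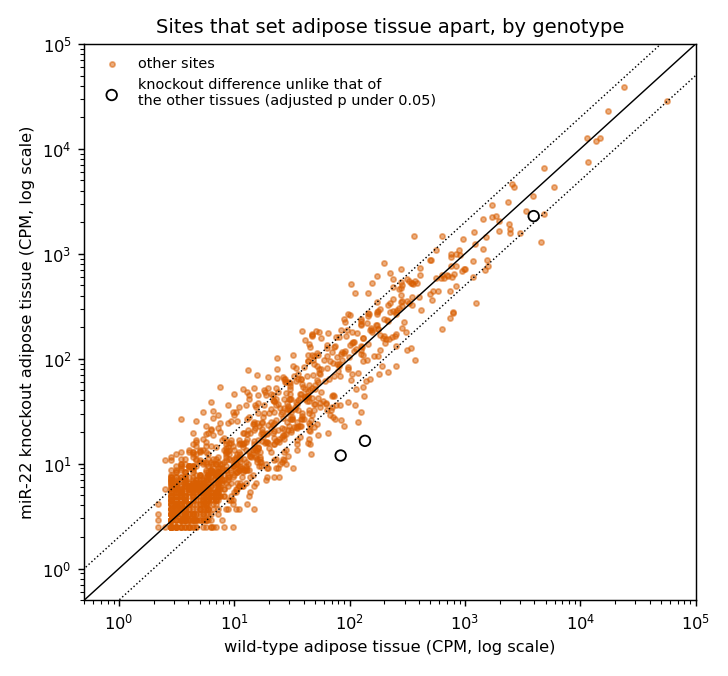
Level of the 1246 sites that set adipose tissue apart in knockout (vertical axis) and wild-type adipose tissue (horizontal axis), in CPM on logarithmic axes, 1 point per site. The solid line marks equal levels and the dotted lines 2-fold differences, and 3 circled sites had a knockout difference in adipose tissue unlike that in the other tissues.

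Whether the knockout difference in adipose tissue differed from that in the other 5 tissues was tested by an interaction term, which was added after the data had been seen and leaves 4 residual degrees of freedom. It was called at 62 sites (0.259% of 23912), 32 of them relatively higher and 30 relatively lower in knockout adipose tissue, at an adjusted p under 0.05. At an unadjusted p under 0.05 there were 1796. Of the 62, 18 were among the 2067 sites that rose in adipose tissue. Among the 1246 with both adipose libraries on top there were 3, close to the share over all sites.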

How the data were processed

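Tags of 12 mouse tissue libraries made by 3P-seq (6 tissues, miR-22 knockout and wild type) were analysed. CASAVA 1.7 called the bases and Bowtie aligned the reads to mm9, per the submitters' processing notes. For each library the authors deposited a list of poly(A) intervals with estimated counts of tags, not scaled. How reads were grouped into intervals is not given in those notes. In each library 1.26% to 5.79% of values were not whole, and sums were rounded after merging.

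Intervals on 1 strand that overlapped or touched in any library were merged and their tags summed. The position of a site is the 3′ end of its most abundant interval. The function filterByExpr of edgeR 4.0.16 (R 4.3.3), with a minimum count of 10, kept sites that held 96.29% to 98.65% of the tags of each library. After TMM scaling, edgeR's quasi-likelihood model had 1 term for each tissue and 1 for genotype, so that knockout and wild type of a tissue stood in for replicates. It left 5 residual degrees of freedom, with a common biological coefficient of variation of 0.31. The contrast was adipose tissue minus the mean of the other 5, or minus 1 tissue, with Benjamini-Hochberg adjustment over 23912 sites. Calls needed a 4-fold difference besides an adjusted p under 0.05.

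Pairs needed at least 5% of tags at each site and 20 tags in at least 6 libraries. Their model had terms for library, distal by tissue and distal by genotype, adjusted over 4183 pairs. Single values per library were compared by exact permutation over 66 splits. Intervals of ratios are exact binomial at 95%, and a floor of 3 counts stood in for 0. Both cover counting error only.

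By rule, the text names the 12 most abundant sites with both adipose libraries on top, the 8 of largest fold at 50 CPM or more, the 8 largest falls with both below the rest and at least 50 CPM elsewhere, and 5 pairs per direction of smallest p. The muscle example, the runs, the sites without tags elsewhere and the interaction sites were chosen after their values were seen. Members, lists and tests were chosen with earlier results of these data known. The steps were tested on simulated data. Alternatives included DESeq2 1.42.0, other merging, filters and scaling, and leaving out each library.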

Additional observations from a re-analysis of the deposited data

Results flagged for a closer look

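The knockout difference in adipose tissue differed from that in the other 5 tissues at 3 of the 1246 sites that set adipose tissue apart. The interaction term in edgeR's quasi-likelihood test gave these calls. The share is close to the 0.259% over all 23912 tested sites, so such calls are not particular to the sites that set adipose tissue apart. Each was relatively lower in knockout adipose tissue, and each rests on 1 adipose library per genotype.

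At the chromosome 7 site from 86865109 to 86865193 (minus strand) the interaction was -3.0 on the log2 scale (adjusted p = 0.0315). Adipose tissue had 2288 CPM in knockout and 3945 CPM in wild type. Lung went the other way, with 48.4 CPM in knockout and 2.80 CPM in wild type, as did muscle, with 48.3 CPM in knockout and 18.6 CPM in wild type. Knockout lung was above wild-type lung at 10 of the 12 most abundant adipose sites and at all 8 of largest fold, this one included. These lists overlap, and the share of all tested sites at which knockout lung was the higher was not counted. The part of lung in the interaction was not tested.

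At the chromosome 6 site from 29023844 to 29023875 (plus strand) the interaction was -4.29 (adjusted p = 0.0345). Adipose tissue had 16.5 CPM in knockout and 135.9 CPM in wild type, which were 40 and 434 tags, a ratio of 0.121 (95% exact binomial interval 0.0854 to 0.168, counting error only). No library of another tissue passed 1.96 CPM, and the heart, liver and kidney libraries had no tag there.

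At the chromosome X site from 155801848 to 155801976 (plus strand) the interaction was -3.03 (adjusted p = 0.0360). Adipose tissue had 12 CPM in knockout and 83.6 CPM in wild type, a ratio of 0.143 (0.0939 to 0.210), against 1.92 to 11.6 CPM elsewhere. Knockout adipose tissue stood only 1.03-fold above the highest other library, knockout lung.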

How the results depend on the processing

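All 26 named sites kept their direction and their call under every alternative run on them, and 8 of 10 named pairs lost theirs, but not their direction, without 1 adipose library, as given with each pair. With 1 library left out, 1821 to 2145 sites rose and 702 to 825 fell, and 1507 (without wild-type muscle) to 2559 rose against muscle. DESeq2 gave 1701 and 779 sites and 38 distal and 84 proximal pairs. Without both muscle libraries 1289 sites fell. Library totals gave 3745 higher sites against heart, and 5927 higher and 1279 lower against muscle. With no count filter 3422 sites rose, and 4487 fell against lung. With the adjusted p alone, 3845 rose and 1818 fell, and against lung 3662 and 4300. Calls in all 5 single-tissue contrasts left 530 and 39 sites and 1 distal and 1 proximal pair. This setting was not among the alternatives run on the named sites. Some of those sites do not meet it, among them the chromosome 8 site from 71430369. A filter on the other 10 libraries, added after the data were seen as were the settings without both muscle or lung libraries, left 1342 higher sites.

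Leaving out 1 library gave 4 to 64 distal and 4 to 172 proximal pairs, 20 to 63 and 21 to 92 against heart, 6 to 52 and 6 to 98 against muscle, 21 to 82 and 20 to 133 against liver, 23 to 109 and 67 to 335 against lung, and 26 to 120 and 34 to 183 against kidney. In 2551 pairs up to 1000 nt apart the counts were 20 and 55, against heart 20 and 34, against muscle 15 and 33, against liver 18 and 42, against kidney 33 and 59, and 159 proximal against lung. With at least 10% of tags at each site (3338 pairs), 31 were distal, and 87 proximal against kidney. The causes of these changes were not tested, except that fewer pairs were tested in the last 2 settings. No paired analysis was possible because the labels give no replicate numbers. Tissues were compared within genotype by the genotype term, and without it 2096 sites rose and 794 fell. Depth limits pairs most in knockout muscle, where 2413 of the 4183 tested pairs had at least 20 tags, against 3205 in knockout adipose tissue.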
